A study of Homo sapiens with 12 samples.

Results

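Translation in human cells rests on elongation and accessory factors as well as on the ribosome itself, and 9 genes for such factors were followed here in lines of head and neck squamous cell carcinoma (HNSCC) exposed to cetuximab, an antibody against the growth factor receptor EGFR. The genes were EEF1A1, EEF1B2, EEF1D, EEF1G, EEF2, TPT1, PABPC1, FAU and RACK1. They were taken by symbol from the 3 count tables, which hold 33514 gene symbols, and were set beside 77 ribosomal protein genes (RPL and RPS). All 9 were found in each table and all 9 passed the filter on low counts. Single-cell RNA sequencing (scRNA-seq) had been done on the established HNSCC lines SCC1, SCC6 and SCC25. In each line, cells given 100 nM cetuximab every day for 5 days were compared with cells given phosphate-buffered saline (PBS), with 2 replicates per group and 12 samples in all. The groups carried no transgene or deletion that the labels name, and line and treatment were the only differences between them.

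Ribosomal protein genes and most genes studied here belong to a class whose messenger RNAs begin with a 5′ terminal oligopyrimidine (TOP) tract, a C followed by a run of C and T bases. Growth factor signals that pass through the kinase mTOR raise the translation of these messengers, and the protein LARP1 binds the tract and holds them back or stabilises them when mTOR is inactive. EEF1A1 brings aminoacyl-tRNA to the ribosome, EEF1B2 and EEF1D recharge it with GTP, EEF1G is the structural subunit of that exchange complex, and EEF2 moves the ribosome along the messenger. PABPC1 binds poly(A) tails, FAU encodes a ribosomal protein of the small subunit fused to a ubiquitin-like protein, RACK1 is a scaffold on the small subunit, and TPT1 is the growth-related tumour protein TCTP.

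The first bases of the messengers were read from RefSeq start sites on GRCh38.p14, the patch release of the GRCh38 build named in the submitters' processing notes. Start entries were found for 7 of the 9 genes. The windows of 30 bases below run 5′ to 3′ on the transcribed strand, from 10 bases before the annotated start. Capitals mark a TOP-type tract, defined as C at the annotated start followed by at least 4 bases that are each C or T, up to the first A or G. They are shown because such a tract is the feature of the TOP class described above. The genes were chosen by name, but most of them belong to that class, so finding tracts in them is not an independent result.
EEF1A1, chr6:73521013-73521042, minus strand: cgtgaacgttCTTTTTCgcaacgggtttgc
EEF1B2, upstream start, chr2:206159599-206159628, plus strand: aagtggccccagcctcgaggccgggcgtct
EEF1B2, downstream start, chr2:206159885-206159914, plus strand: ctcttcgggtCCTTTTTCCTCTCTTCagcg
EEF1G, chr11:62573872-62573901, minus strand: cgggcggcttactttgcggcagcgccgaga
EEF2, chr19:3985444-3985473, minus strand: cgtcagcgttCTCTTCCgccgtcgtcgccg
FAU, chr11:65122115-65122144, minus strand: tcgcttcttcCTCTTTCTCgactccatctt
RACK1, chr5:181243887-181243916, minus strand: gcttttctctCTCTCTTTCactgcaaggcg
TPT1, chr13:45341164-45341193, minus strand: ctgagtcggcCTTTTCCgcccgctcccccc

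A tract was present at a start of 6 of the 7 genes. It was 16 bases long at the downstream start of EEF1B2, 9 bases in FAU and RACK1, and 7 bases in EEF1A1, EEF2 and TPT1. The annotated start of EEF1G and the upstream start of EEF1B2 had none. Among the RPL and RPS genes, 46 of 62 with an entry had a tract, against 5.14% of the 27305 symbols in the RefSeq table and 4.07% of its 35116 entries. Only the fixed position and the transcribed strand were searched, and which start the cells used was not measured.

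The 12 samples held 961 to 2854 cells and 57057402 to 112170073 unique molecular identifiers (UMIs, each a counted RNA molecule), with median depths per cell of 24078.5 to 54864 UMIs. EEF1G, the least abundant of the 9 genes, still had 1337 to 4351 UMIs in a sample, so that the spread between samples rather than counting limited the precision. All 11 markers of squamous carcinoma cells had at least 1 UMI in every sample, and their sum was 9657.0 to 20356.8 CPM. Single markers were near the floor in some samples, with lowest values of 0.379 CPM for KRT14, 0.967 for KRT5 and 2.92 for KRT6A. Of the immune list, PTPRC, CD3E, MS4A1 and LYZ stayed at or under 0.067 CPM in every sample, while CD68 was at 3.37 to 188.1 CPM. Samples shared 1 to 13 cell barcodes. Whether the replicates were separate cultures is not clear, and the p-values cover the spread between samples only.

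Levels are given as CPM (UMIs per sample scaled to a common total) after TMM scaling (trimmed mean of M-values, which adjusts library size so that the bulk of genes is not shifted), and changes as log2 fold changes of cetuximab minus PBS ± standard error (SE). The test was edgeR's quasi-likelihood test, run on counts summed per sample, with p adjusted over the 17897 genes tested and a threshold of 0.05. A sum over cells alone does not tell fewer cells with a messenger from less messenger per cell. In single cells brought to equal depth (below), EEF1A1 had a UMI in 100% of the cells of every sample. At least 95.84% of cells had one for EEF1B2 and at least 96.72% for EEF2. For EEF1D, TPT1, PABPC1, FAU and RACK1 it was at least 99.79%, and for EEF1G 26.82% to 48.45%. Every one of the 9 genes had a negative estimate in every line, which makes 27 of 27 estimates, and both cetuximab samples lay below both PBS samples in 18 of these 27 cases. The cases were 5 genes in SCC1, 8 in SCC6 and 5 in SCC25, where 20.4%, 21.4% and 15.3% of all genes tested had that order. No case had both cetuximab samples above the PBS samples. Within a line none of the 9 changes passed the threshold without a replicate block, although 1 gene in SCC1, 4 in SCC6 and 0 in SCC25 had an unadjusted p under 0.05. Of the 17897 genes tested, 1570 in SCC1, 3561 in SCC6 and 1041 in SCC25 had such a p. DESeq2 called 0 of the 9 within each line as well, with 1, 5 and 0 at an unadjusted p under 0.05. Over all genes tested, DESeq2 called 274 in SCC1, 1671 in SCC6 and 101 in SCC25. An unadjusted p under 0.05 was reached there by 1714, 3742 and 1099 genes. Over all genes, edgeR called 0.0168% in SCC1, 3.81% in SCC6 and 0% in SCC25.

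**Figure D1:**
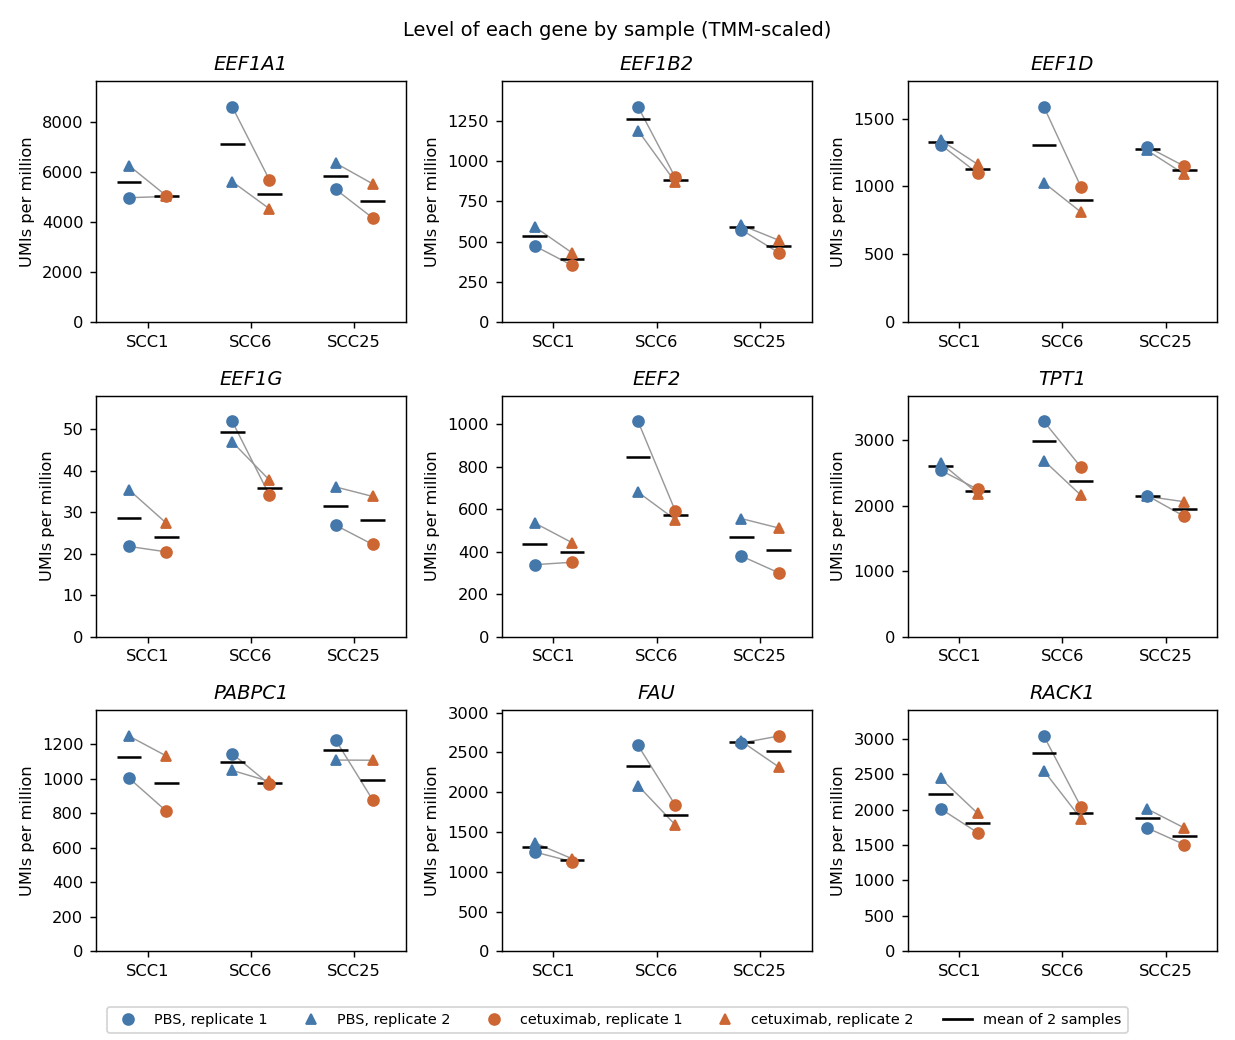
Level of each of the 9 genes in every sample, in TMM-scaled CPM (vertical axis from 0), by line and treatment; grey lines join samples of equal replicate number and black bars are means of 2 samples. Most lines slope down from PBS (blue) to cetuximab (orange), and the EEF1B2 groups do not overlap in any of the 3 lines.

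EEF1B2, the nucleotide exchange factor, fell across the 3 lines. In SCC1 it stood at 473.1 and 591.7 CPM in PBS replicates 1 and 2 and at 352.9 and 431.0 with cetuximab. In SCC6 the PBS samples held 1337.5 and 1190.0 and the cetuximab samples 898.8 and 870.3. In SCC25 the values were 573.7 and 602.6 with PBS and 431.7 and 509.2 with cetuximab. Both treated samples were below both untreated samples in each line. The effect across lines was -0.43 ± 0.10 (edgeR, adjusted p = 0.0418, lower in 6 of 6 pairs of equal replicate number), and EEF1B2 was the only one of the 9 genes past the threshold there, where 3.67% of all genes were called and 1.13% were called lower. The call was lost when any of 11 of the 12 samples was left out, with an adjusted p of up to 0.116, and held (adjusted p = 0.0475) only without the SCC25 cetuximab sample of replicate 2, while the estimate stayed between -0.47 and -0.32 in all 33 fits that gave one.

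RACK1 had the next smallest p. The PBS samples of SCC1 held 2012.5 and 2440.8 CPM, those of SCC6 3038.2 and 2547.0, and those of SCC25 1741.3 and 2009.4. The cetuximab samples of SCC1 held 1672.9 and 1945.5, those of SCC6 2035.0 and 1871.0 and those of SCC25 1505.9 and 1741.2. The groups did not overlap in any line, but in SCC25 the higher treated sample was almost level with the lower untreated one. The estimate across lines was -0.34 ± 0.11 (edgeR, adjusted p = 0.0906, lower in 6 of 6 pairs). DESeq2 called RACK1 along with EEF1B2, but across lines it called 1771 of the 17897 genes, 748 of them lower. Without the block edgeR called 656 of all genes, 203 of them lower. With the replicate block, edgeR called RACK1 too (below).

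EEF1D and EEF1G, partners of EEF1B2 in the exchange complex, had lower values in 6 of 6 pairs each. EEF1D stood at 1308.0 and 1340.9 CPM in SCC1 with PBS and at 1095.4 and 1162.1 with cetuximab. In SCC6 it was at 1585.9 and 1027.2 against 994.1 and 809.8, and in SCC25 at 1292.0 and 1265.2 against 1148.4 and 1089.5. The EEF1D groups were separate in all 3 lines, with an SCC6 PBS sample (replicate 1) far above the other. Its estimate across lines was -0.32 ± 0.12 (edgeR, adjusted p = 0.155).

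EEF1G was read at low levels for a subunit of the same complex. It held 21.8 and 35.4 CPM in SCC1 with PBS and 20.5 and 27.4 with cetuximab, 51.9 and 47.0 against 34.1 and 37.8 in SCC6, and 26.9 and 36.1 against 22.2 and 33.8 in SCC25. Its groups overlapped in SCC1 and SCC25, where replicate 2 was the higher sample under both treatments. The estimate across lines was -0.30 ± 0.16 (edgeR, adjusted p = 0.316). In the GENCODE annotation another protein-coding gene model overlaps EEF1G on the same strand, and how reads shared by overlapping genes were counted is not given in the sources used here, so the level is uncertain. The effect of such overlap was not tested.

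EEF1A1, which gave 36.2% of all UMIs of the 9 genes, varied more between replicates. In SCC6 its PBS samples differed by a wide margin, at 8595.8 and 5607.9 CPM, and the cetuximab samples held 5679.3 and 4524.7. In SCC1 the PBS samples held 4968.5 and 6251.9 and the cetuximab samples 5017.4 and 5049.9, and in SCC25 they held 5304.4 and 6351.0 against 4158.3 and 5519.8. The groups overlapped in all 3 lines, and 5 of 6 pairs were lower with cetuximab. The estimate across lines was -0.30 ± 0.14 (edgeR, adjusted p = 0.229). EEF1A1 has near-identical copies in the genome, and reads split among them would make its level uncertain.

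EEF2, the translocation factor, overlapped between groups in SCC1 and SCC25. It stood at 339.0 and 534.9 CPM in SCC1 with PBS and at 350.2 and 442.6 with cetuximab, and at 379.5 and 555.6 against 300.9 and 511.7 in SCC25. In SCC6 it went from 1012.6 and 679.9 to 592.0 and 551.0, with no overlap. The difference between replicates 1 and 2 in SCC1 and SCC25 was larger than the difference between treatments. The estimate across lines was -0.30 ± 0.18 (edgeR, adjusted p = 0.374).

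TPT1 was separate between groups in every line. It held 2539.2 and 2656.3 CPM against 2247.2 and 2184.1 in SCC1, 3283.2 and 2686.8 against 2584.0 and 2154.9 in SCC6, and 2152.3 and 2139.8 against 1834.8 and 2058.6 in SCC25, PBS first. All 6 pairs were lower, but by no more than 0.35 on the log2 scale. The estimate across lines was -0.23 ± 0.094 (edgeR, adjusted p = 0.177).

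FAU differed in sign between the replicates of SCC25. Its PBS samples held 2619.0 and 2640.1 CPM there, and the cetuximab samples 2706.4 and 2320.1. In SCC1 the values were 1248.4 and 1364.0 with PBS against 1127.7 and 1164.7 with cetuximab, and in SCC6 they were 2588.4 and 2082.8 against 1838.2 and 1589.8. SCC1 and SCC6 showed separate groups, and the estimate across lines was -0.23 ± 0.10 (edgeR, adjusted p = 0.223). In GENCODE, SYVN1 overlaps FAU on the same strand.

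PABPC1 had the smallest change across lines, at -0.20 ± 0.11 (edgeR, adjusted p = 0.326). It held 1003.5 and 1246.8 CPM with PBS and 813.0 and 1132.0 with cetuximab in SCC1, 1144.4 and 1047.7 against 967.2 and 984.0 in SCC6, and 1224.9 and 1107.8 against 876.4 and 1106.9 in SCC25. The groups overlapped in SCC1, and replicate 2 of SCC25 was level between treatments. With library totals in place of TMM the SCC6 estimate changed sign, from -0.17 to 0.06.

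Samples of equal replicate number deviated together, both within a line and between lines. A fit with the replicate number within each line as a block narrowed the intervals. With the block, 7 of the 9 genes fell in SCC6, where 10.1% of all genes were called lower. RACK1 changed by -0.51 ± 0.093 (edgeR with the block, adjusted p = 0.00904), EEF1B2 by -0.51 ± 0.10 (adjusted p = 0.0137) and EEF1D by -0.51 ± 0.11 (adjusted p = 0.0171). FAU changed by -0.44 ± 0.10 (adjusted p = 0.0202), EEF1A1 by -0.45 ± 0.11 (adjusted p = 0.0277), EEF2 by -0.54 ± 0.15 (adjusted p = 0.0353) and TPT1 by -0.33 ± 0.095 (adjusted p = 0.0426). EEF1G, at -0.46 ± 0.14, had an adjusted p of 0.0508, and PABPC1, at -0.17 ± 0.13, one of 0.399. The block called 0 of the 9 in SCC1, where EEF1B2 had an adjusted p of 0.0543, and 0 in SCC25, against 1.99% and 0.207% of all genes called lower. An unadjusted p under 0.05 was reached there by 3 and 2 of the 9, and by 3548 and 2720 of the 17897 genes tested. Across lines it called 3 of the 9 lower, namely EEF1B2 (adjusted p = 0.0115), RACK1 (adjusted p = 0.024) and EEF1D (adjusted p = 0.0429), against 5.55% of all genes.

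The SCC6 calls depended on the form of the block, on the scaling and on 1 pair of samples. With a replicate block shared by the lines in place of 1 within each line, edgeR called 0 of the 9 in SCC6 (5 at an unadjusted p under 0.05), and the smallest adjusted p was 0.0546, for EEF1B2. Scaled by library totals alone, the median change of all genes in SCC6 moved from 0.00 to 0.23, the share of lower calls without the block from 34.2% to 16.1%, the median over the 9 genes from -0.48 to -0.24, and the block called 0 of the 9, where 4.97% of all genes were called lower. Scaled by totals without the 9 genes, RPL and RPS genes and mitochondrial genes, the block called 3. Without the SCC6 samples of replicate 1, it called 0, with estimates of -0.45 to -0.09 and adjusted p-values of 0.133 to 0.858, and without those of replicate 2 it called 7. Either fit leaves 1 SCC6 sample per treatment, which is assumed to vary like the samples of the other lines. In replicate 1 the median depth was 24078.5 UMIs per cell with cetuximab and 32438 with PBS, the former being the lowest of the 12 samples. With cells thinned to equal depth the block called 6 in SCC6. The share of all genes called is not given here for the block with totals without those genes, with thinned cells or without a pair. Those counts cannot be set against a background.

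**Figure D2:**
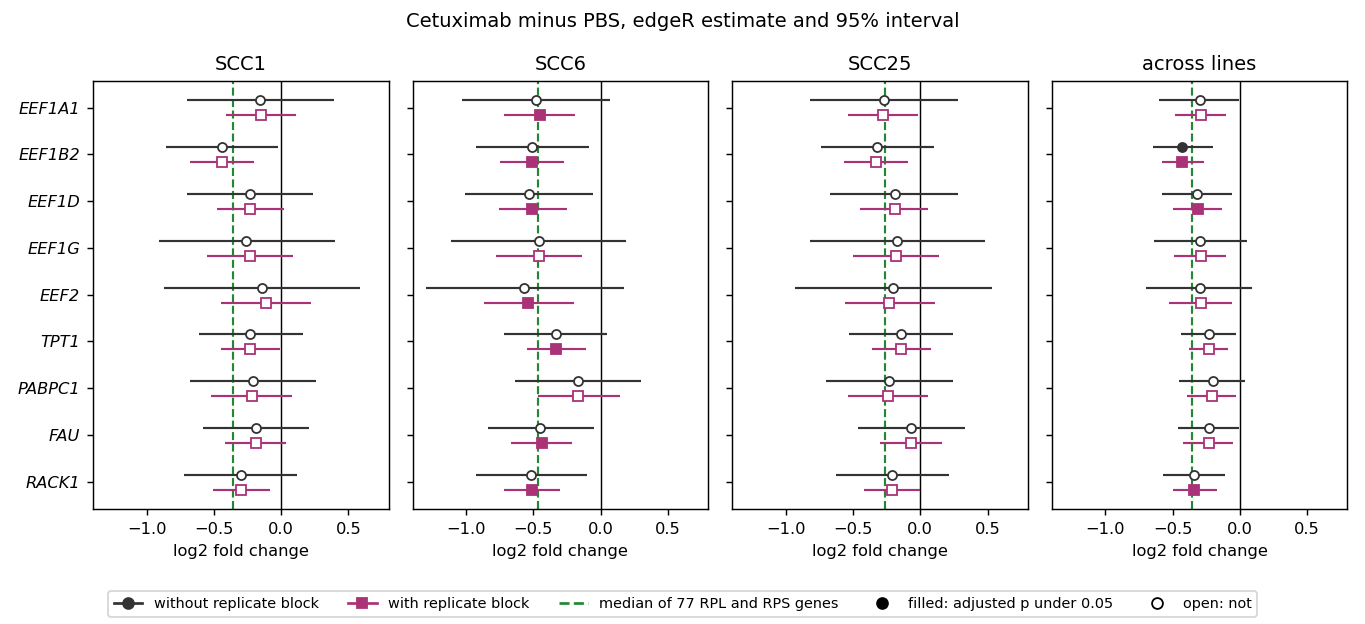
Log2 fold change of cetuximab minus PBS with its confidence interval for each gene, in each line and across lines (horizontal axis), from edgeR without (circles) and with (squares) the replicate block; filled symbols passed an adjusted p of 0.05 and the dashed line is the median of the 77 RPL and RPS genes. All points lie left of 0, with 7 filled squares in SCC6 and filled symbols for EEF1B2, EEF1D and RACK1 across lines.

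The lines were not shown to differ in these changes. When the interaction between treatment and line was tested, edgeR called 0 of the 9 genes, but also 0 of all 17897 genes tested. An unadjusted p under 0.05 was reached by 0 of the 9 and by 1318 of all genes. The lowest p of the 9 with edgeR was 0.339, for FAU. DESeq2 also called 0 of the 9, with 276 of all genes called, and edgeR with the block called 0, with 1.29% of all genes called. The intervals were wide: that of EEF2 in SCC6 ran from -1.30 to 0.17 and that in SCC1 from -0.87 to 0.59.

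Over pairs of equal replicate number, 51 of 54 log2 ratios were negative, with a range of -0.77 to 0.05 and a median of -0.28. The exceptions were EEF1A1 and EEF2 in replicate 1 of SCC1 and FAU in replicate 1 of SCC25. Of the 9 genes, 6 (EEF1B2, EEF1D, EEF1G, TPT1, PABPC1 and RACK1) were lower in all 6 pairs, as were 77 of 77 RPL and RPS genes and 10.6% of all genes tested. With library totals in place of TMM, 47 of the 54 ratios were negative.

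The 9 genes together made up a small share of all UMIs that was lower with cetuximab in every line, and the larger share of the RPL and RPS genes was lower by more on the log2 scale. In SCC1 the 9 genes took 1.65% ± 0.083 (SD, n = 2) of UMIs with PBS and 1.48% ± 0.037 with cetuximab. In SCC6 the shares were 1.70% ± 0.27 and 1.47% ± 0.18, and in SCC25 1.53% ± 0.0099 and 1.36% ± 0.12. The share was lower with cetuximab in 6 of 6 pairs, and on the log2 scale the lines differed from PBS by -0.16 (SCC1), -0.21 (SCC6) and -0.17 (SCC25).

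The summed RPL and RPS share went from 22.5% ± 1.0 to 18.2% ± 1.3 in SCC1, from 30.9% ± 4.5 to 25.6% ± 3.9 in SCC6 and from 24.1% ± 3.0 to 20.2% ± 0.22 in SCC25. The log2 differences were -0.31, -0.27 and -0.25, with lower shares in 6 of 6 pairs. The 9 genes relative to RPL and RPS were higher in 6 of 6 pairs, going from 7.34% ± 0.036 to 8.13% ± 0.37 in SCC1, from 5.50% ± 0.070 to 5.75% ± 0.18 in SCC6 and from 6.38% ± 0.83 to 6.73% ± 0.66 in SCC25. In SCC25 that difference was smaller than the spread between replicates, and no test was made of any of these sums.

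**Figure D3:**
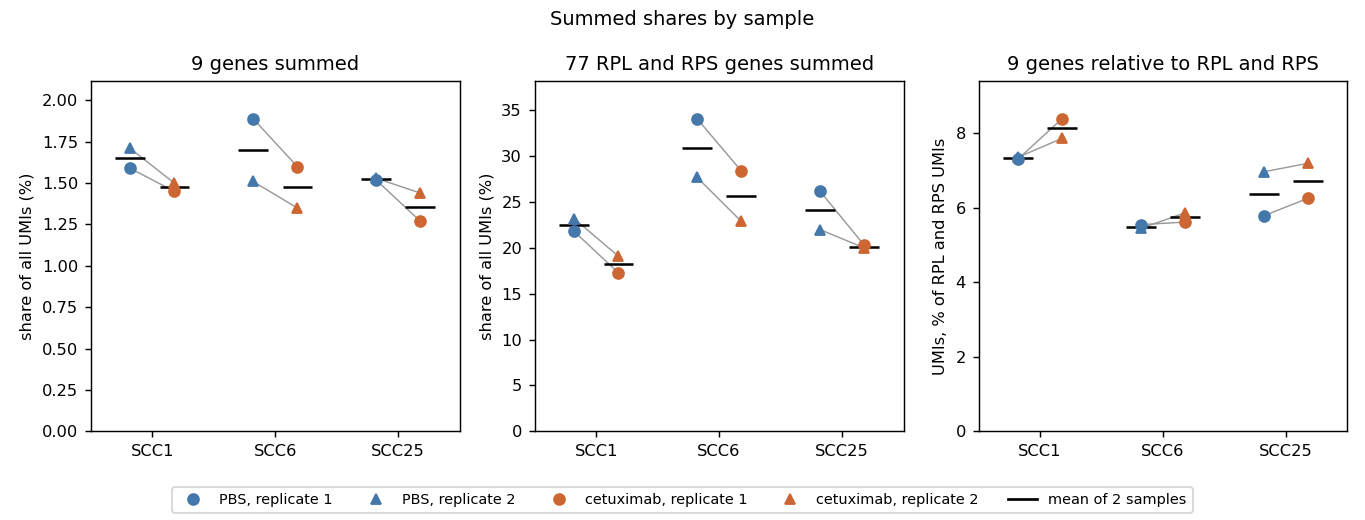
Share of all UMIs taken by the 9 genes (left) and by 77 RPL and RPS genes (middle), and UMIs of the 9 genes as a percentage of RPL and RPS UMIs (right), by line, treatment and replicate; vertical axes start at 0 and black bars are means of 2 samples. The left and middle panels slope down from PBS to cetuximab in all 6 pairs and the right panel slopes up.

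Other measures were also compared between treatments in the same samples. The summed share of 12 G2 and mitosis genes was lower with cetuximab in 6 of 6 pairs, by 0.11 to 1.56 on the log2 scale. The mitochondrial share was higher in 4 of 6, by 0.01 to 0.43, and lower in SCC25, at -0.25 in replicate 1 and -0.02 in replicate 2. The summed level of 5 fibroblast markers was higher in 6 of 6, at 17.5 to 73.0 CPM with cetuximab against 0.947 to 36.0 with PBS. The highest level in any sample was 56.1 for LUM, 23.1 for COL1A1, 14.9 for COL1A2, 2.25 for DCN and 1.37 for PDGFRB. The part of these measures in the changes of the 9 genes was not tested.

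In the untreated lines the levels of 4 of the 9 genes differed between lines. EEF1B2 was highest in SCC6, at 1263.7 ± 104.3 CPM (SD, n = 2), against 588.2 ± 20.4 in SCC25 and 532.4 ± 83.9 in SCC1. SCC1 was below SCC6 by -1.25 ± 0.19 (edgeR, adjusted p = 0.000594) and SCC6 above SCC25 by 1.10 ± 0.19 (adjusted p = 0.00131), while the lower 2 lines did not differ beyond their spread. Over all genes 40.2% were called between SCC1 and SCC6, 40.8% between SCC1 and SCC25 and 40.9% between SCC6 and SCC25, so that the counts here (3, 1 and 2 of the 9) were no larger shares than the background.

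FAU was lowest in SCC1, at 1306.2 ± 81.7 CPM, against 2335.6 ± 357.5 in SCC6 and 2629.5 ± 14.9 in SCC25. The difference was -0.84 ± 0.18 against SCC6 (edgeR, adjusted p = 0.00406) and -1.01 ± 0.18 against SCC25 (adjusted p = 0.00148), and SCC6 and SCC25 did not differ beyond their spread. EEF2 was lower in SCC1 than in SCC6 by -0.95 ± 0.33 (adjusted p = 0.042), and RACK1 higher in SCC6 than in SCC25 by 0.57 ± 0.19 (adjusted p = 0.033). The calls of EEF1B2 and FAU held in all 23 fits, that of EEF2 in 15 of 23 and that of RACK1 in 17 of 23. EEF1A1, EEF1D and PABPC1 had no called difference between untreated lines in any of the 23 fits. EEF1G (SCC1 against SCC6, -0.79 ± 0.30, edgeR, adjusted p = 0.0554) was called in 8 of the 23, among them DESeq2 and a replicate block shared by the lines. TPT1 (SCC6 against SCC25, 0.48 ± 0.17, edgeR, adjusted p = 0.05) was called in 5, among them the same pair of fits.

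The levels of the genes went together over the samples. After the mean of each line was taken away from log2(CPM + 1), Pearson's r between pairs of the 9 genes over the 12 samples ran from 0.40 to 0.96 with a median of 0.79. EEF1B2 and RACK1 were the most alike (0.96), followed by EEF1D and FAU (0.94), and FAU and PABPC1 the least (0.40). RACK1 followed the mean of the other 8 most closely (0.979) and PABPC1 least (0.733). The samples share treatment, library and scaling, so these values are a description.

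Among 2632 genes of at least 50 CPM outside the 9 and the RPL and RPS genes, the 5 whose pattern over the 12 samples was most like the mean of the 9 were ATP5MC2 (r = 0.982), a subunit gene of mitochondrial ATP synthase, HNRNPA1 (0.960), a splicing factor, ADIRF (0.954), TXN2 (0.937), the mitochondrial thioredoxin, and AQP3 (0.929), a water and glycerol channel. The most opposed were CLTB (-0.922), a clathrin light chain, and LSM1 (-0.921), of the decapping machinery. AQP3 fell by 2.17 on the log2 scale across lines (edgeR, adjusted p = 0.0323), a much larger change than those of the 9 genes. The RPL and RPS genes had r of 0.223 to 0.98 with a median of 0.766, and the other genes a median of 0.243.

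Related lists gave the 9 genes a context. Across lines their median change was -0.30 (1 of 9 called lower, 0 higher), against -0.36 for RPL and RPS genes (8 of 77 lower), -0.27 for 12 other TOP messengers (0 called), -0.18 for 44 initiation factors (0 called) and 0.01 for all genes tested. The 26 paralogs and partners measured stood at -0.20, cytosolic aminoacyl-tRNA synthetases at -0.21 (22 genes) and mitochondrial translation factors at -0.21 (12 genes), each with 0 called. Of all genes tested, 1.13% were called lower across lines. The medians shift with the scaling: with library totals alone the median of the 9 genes was -0.19 and that of all genes 0.11, and 14.6% of the calls over all genes were lower, against 30.9% with TMM.

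With the replicate block 70 of 77 RPL and RPS genes, 5 of 12 other TOP messengers, 7 of 44 initiation factors, 7 of 26 paralogs and partners, 3 of 22 synthetases and 2 of 12 mitochondrial factors were called lower across lines, and no gene of these lists higher, where 5.55% of all genes were called lower. RPS23 (-0.45 ± 0.097, edgeR without the block, adjusted p = 0.0292), RPS2 (-0.54 ± 0.12, adjusted p = 0.0339) and RPS14 (-0.43 ± 0.10, adjusted p = 0.0394) had the smallest p of the RPL and RPS genes.

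Of 31 mTOR pathway and LARP genes, MLST8, a subunit of both mTOR complexes, fell across lines by 0.50 ± 0.12 (edgeR, adjusted p = 0.0449). It was the only one called, where 3.67% of all genes were called and 1.13% were called lower, and the median of the list was -0.07. Of 12 G2 and mitosis genes, TPX2, a spindle factor, was called, at -0.67 ± 0.17 (adjusted p = 0.0474), and the list's median was -0.69. Within SCC6, where 3.81% of all genes were called, EEF2KMT, the methyltransferase of EEF2, fell by 0.97 ± 0.22 (edgeR, adjusted p = 0.0414). VIM, the vimentin gene among the other TOP messengers, rose there by 3.70 ± 0.60 (adjusted p = 0.0122), from 33.6 and 92.8 CPM to 840.6 and 804.9, against the direction of the 9 genes.

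**Figure D4:**
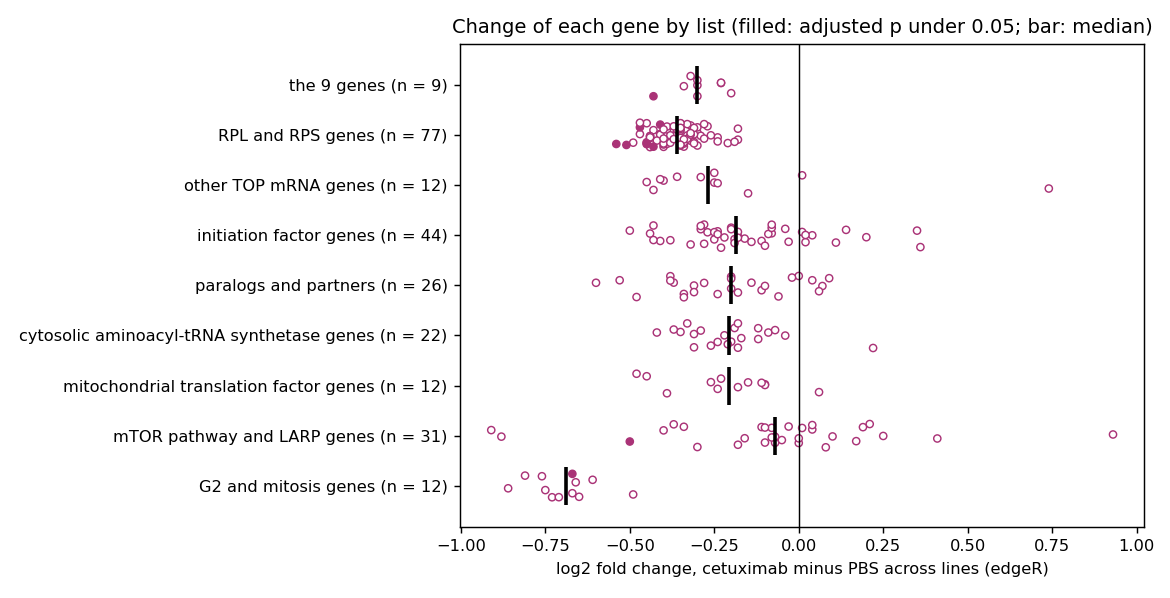
Log2 fold change of cetuximab minus PBS across lines for each gene (horizontal axis, edgeR) by list; each point is a gene, filled points passed an adjusted p of 0.05 and bars are list medians. The 9 genes and all 77 RPL and RPS genes lie left of 0, the other translation lists spread to both sides, and VIM is the point at 0.74 among the other TOP mRNA genes.

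The tract at the annotated start was also looked for in those genes tested that have a RefSeq start entry. Tested genes without an entry were not searched and are in none of the groups below. Of 789 tested genes with a tract that are neither among the 9 nor RPL or RPS genes, 56.4% had a negative estimate across lines (median -0.06), against 49.6% of 11228 genes without one (median 0.00). Called lower were 1.27% and 1.05%. In SCC6 the medians were -0.14 and -0.01. RPL and RPS genes with a tract (46 genes) had a median of -0.37, with 6 called lower. Those without (16 genes) had a median of -0.34, with 0 called lower. EEF1G, without a tract and of uncertain level, had the same estimate as EEF1A1 and EEF2, with one (-0.30). The search covered only the fixed position at annotated starts, and which start the cells used was not measured. No test was made of these medians.

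Single cells were compared after each was thinned to 15000 UMIs, which kept 23063 of 23914 cells. The summed UMIs of the 9 genes had a lower median with cetuximab in 6 of 6 pairs, and the quartiles moved with it. In replicates 1 and 2 the median cell went from 232 and 252 UMIs to 208 and 220 in SCC1, from 284 and 225 to 238 and 199 in SCC6, and from 224 and 230 to 186 and 213 in SCC25. Between 63.1% and 81.1% of treated cells lay below the median of the PBS cells of the same replicate number. For RPL and RPS this share was 71.9% to 91.8%, and it was larger than that of the 9 genes in each of the 6 pairs.

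**Figure D5:**
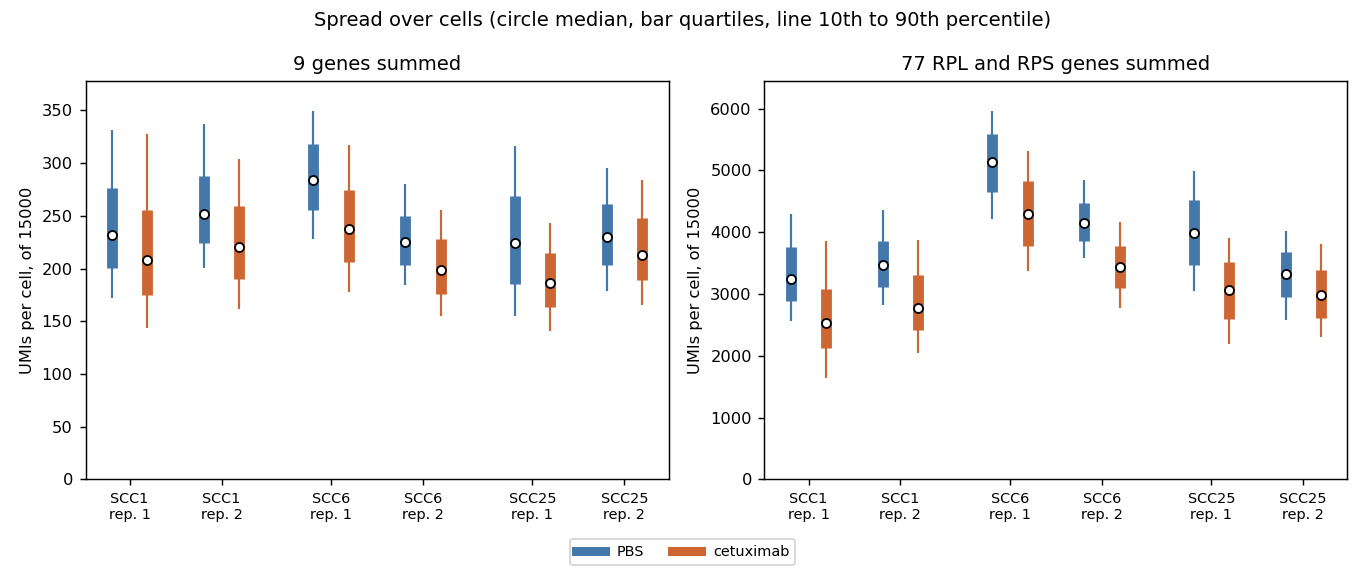
UMIs per cell, of 15000 after thinning, for the 9 genes summed (left) and 77 RPL and RPS genes summed (right) in each sample; circles are medians over cells, thick bars quartiles and thin lines the 10th to 90th percentile. Within each pair the cetuximab sample (orange) sits below the PBS sample (blue), with broad overlap of the cells.

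The coefficient of variation of the summed 9 genes over cells was 17.1% to 35.5% and was higher with cetuximab in 5 of 6 pairs, replicate 1 of SCC25 being the exception. EEF1A1 had 62.4 to 111 UMIs per thinned cell on average over the samples and varied far beyond counting noise, with a variance to mean ratio (Fano factor, 1 for counting noise alone) of 7.24 to 18.9. That of TPT1 was 2.99 to 11.8 and that of RACK1 2.36 to 5.35. EEF1D (1.49 to 2.97), EEF1B2 (1.59 to 2.19), EEF2 (1.57 to 2.38), FAU (1.63 to 3.44) and PABPC1 (1.73 to 4.44) had lower ratios. At equal relative variation the ratio rises with the mean, so it does not rank the genes by variability. The coefficient of variation, counting noise included, was 26.0% to 47.4% for EEF1A1 and 22.6% to 35.4% for FAU. It was 31.8% to 56.4% for EEF1B2 and 34.8% to 60.4% for EEF2. EEF1G, with 0.32 to 0.663 UMIs per cell, had a ratio of 0.976 to 1.11, so that at this depth no variation between cells beyond counting noise could be seen for it.

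Across the cells of a sample, the 9 genes summed correlated with the RPL and RPS sum at r = 0.58 to 0.89, with a median of 0.71 over the 12 samples. In SCC1 it was 0.85 to 0.89 with cetuximab and 0.71 to 0.73 with PBS, and in SCC6 0.72 against 0.64 to 0.68, while in SCC25 the treatments overlapped (0.58 to 0.72 against 0.66 to 0.71). Both sums come from the same cell and are parts of 1 fixed total, and r is given as a description only. With the G2 and mitosis sum, r ran from -0.33 to 0.03. Taken singly, EEF1A1 (median r = 0.54) and PABPC1 (0.51) followed the RPL and RPS sum most closely, and FAU and EEF2 (both 0.26) less, apart from the sparse EEF1G (0.10).

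Pairs of the 9 genes differed in how they went together in single cells. EEF1A1 correlated with RACK1 (median r over samples 0.46), EEF2 (0.45) and TPT1 (0.44), and in every sample these values were at least 0.32. EEF1D with RACK1 followed at 0.32 and EEF1B2 with RACK1 at 0.28. FAU had medians of 0.18 with RACK1, 0.17 with EEF1B2 and 0.14 with EEF1D, but of 0.00 with EEF2, 0.02 with TPT1, 0.04 with EEF1A1 and 0.05 with PABPC1. The medians of the sparse EEF1G ran from 0.03 to 0.12. FAU and EEF1B2 counts went with the depth of a cell before thinning in every sample (r of 0.10 to 0.34 and 0.07 to 0.26), where EEF1A1 and TPT1 went the other way (-0.30 to -0.01 and -0.31 to -0.05). Genes of the same exchange complex were not the closest pairs, EEF1B2 and EEF1D having a median r of 0.19.

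On GRCh38.p14, RefSeq places EEF1B2 at chr2:206159609-206162928, RACK1 at chr5:181236897-181243906, EEF1A1 at chr6:73515750-73521032, EEF1G at chr11:62559596-62573891, FAU at chr11:65120630-65122134, TPT1 at chr13:45333471-45341183 and EEF2 at chr19:3976056-3985463, all as protein-coding genes. PABPC1 and EEF1D both lie on chromosome 8. The counts are per gene and come from 3′ ends, so they do not separate transcripts from the 2 annotated starts of EEF1B2.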

How the data were processed

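The labels gave each sample its group and its replicate number. The deposited tables hold raw UMI counts per gene and cell, 1 table per line, which the authors made with Cell Ranger (per the labels, on GRCh38) from Chromium 3′ libraries; the version is not given in the sources used here. All 23914 deposited cells were used, with no doublet caller, and the counts of 24 duplicated symbols were added. Counts were summed per sample and tested with edgeR 4.0.16 (R 4.3.3), using filterByExpr, TMM factors and 1 coefficient per group (6), or line and treatment for the effect across lines. P-values are two-sided and Benjamini-Hochberg adjusted. The edgeR and DESeq2 (1.42.0) alternatives varied scaling, filter, tool, cells and samples. Only the edgeR fit without a block and that with the replicate block within each line were tried on simulated counts. Those counts held no replicate effect, and the other alternatives were not tried on them. The labels number replicates without saying what a number shares. Deviations from group means of same-numbered samples correlated at 0.377 in SCC1, 0.349 in SCC6 and 0.598 in SCC25 over 17897 genes. Between any groups, those of different lines included, the correlations ran from 0.177 to 0.598. The numbers were taken to pair the samples, but these values do not settle whether a number is shared within a line or by all lines. The study tested single cells, where sums per sample were used here. Listed genes named in the text are up to 3 per list past the threshold with the smallest p across lines, and those past it within a line for the initiation factor, paralog and other TOP lists. Patterns were compared for genes of a mean of at least 50 CPM, leaving out the 9 and RPL and RPS genes, naming the 5 highest and 3 lowest r, of which 1 is not reported here. The 9 genes and the lists were chosen with earlier results of these data known. Cells were thinned without replacement to 15000 UMIs, which is the 10th percentile in the shallowest sample, taken down to the next 500.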

Additional observations from a re-analysis of the deposited data

How the results depend on the processing

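Of 1179 cetuximab estimates of single genes over 33 alternatives, 10 of them chosen after seeing the data, 1163 were negative, and the 51 alternative values of the summed shares were all negative. The counts of called genes depended more on the choices. In SCC6, where the fit without a replicate block called 0, the replicate block called 7, and it called 8 with DESeq2 size factors, 3 with totals without the 9 genes, RPL, RPS and mitochondrial genes, 6 with thinned cells, 0 with library totals alone and 0 as a replicate block shared by the lines. In SCC1 the replicate block with thinned cells called 2. Across lines, against 1, library totals alone and no filter on low counts each called 0, and DESeq2 and a replicate block shared by the lines each called 2. The replicate block called 3 there, as it did with DESeq2 size factors, 2 with library totals alone, 6 without those genes in the totals and 6 with thinned cells. With library totals alone the block called 524 of all 17897 genes lower across lines. The share of all genes is not given here for the block with the other scalings or with thinned cells, nor for the shared block. It is also not given for fits that left out samples or pairs, so those counts cannot be set against a background. Leaving out samples or pairs gave 0 to 7 in SCC6, where 0 came from each single sample and from replicate 1 of SCC6 under the block, and 0 to 2 across lines, where 11 of the 12 single samples gave 0. The other calls that the block changed are those given with the results above. Depth limits the single-cell values of EEF1G, whose mean per thinned cell was 0.663 UMIs at most.

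Between untreated SCC6 and SCC25, against 2, library totals alone, only the samples compared and thinned cells each called 1, DESeq2 4 and the shared block 5, and leaving out samples gave 1 to 4. Of all 17897 genes, edgeR called 7313 and DESeq2 7735 between untreated SCC6 and SCC25. With library totals alone 2690 were called higher and 4403 lower, and the share is not given here for the other fits. With library totals alone the lower share of calls over all genes went from 53.6% to 36.5% for SCC1 against SCC6 and from 57.4% to 46.8% for SCC1 against SCC25. The median of all genes went to 0.31 and 0.15.

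Signs turned for small estimates. PABPC1 in SCC6 was 0.06 with library totals alone, with and without the replicate block. Leaving out samples or pairs moved the SCC1 estimates of EEF1A1 from -0.32 to 0.02, EEF1G from -0.57 to 0.14, EEF2 from -0.44 to 0.22 and PABPC1 from -0.47 to 0.00. The SCC25 estimates then ran from -0.50 to 0.12 for EEF1G, -0.64 to 0.15 for EEF2, -0.48 to 0.02 for PABPC1 and -0.17 to 0.05 for FAU. Between untreated SCC1 and SCC25, library totals alone gave 0.14 for EEF1A1, 0.04 for EEF1B2, 0.05 for EEF1G, 0.09 for EEF2 and 0.13 for PABPC1, and totals without the named genes gave 0.09 for EEF1A1, 0.00 for EEF1G, 0.05 for EEF2 and 0.08 for PABPC1. Leaving out samples gave -0.23 to 0.11 for EEF1A1, -0.31 to 0.02 for EEF1B2, -0.53 to 0.18 for EEF1G, -0.46 to 0.21 for EEF2 and -0.22 to 0.11 for PABPC1. Between untreated SCC1 and SCC6, library totals alone gave 0.14 for TPT1 and 0.01 for RACK1, EEF1D was 0.00 with no filter and -0.01 with only the samples compared, and leaving out samples gave -0.61 to 0.00 for EEF1A1, -0.26 to 0.37 for EEF1D and -0.13 to 0.19 for PABPC1. Between untreated SCC6 and SCC25, EEF1D was -0.12 with library totals alone and -0.01 with thinned cells, and leaving out samples gave -0.05 to 0.56 for EEF1A1 and -0.31 to 0.31 for EEF1D. None of these reversed estimates had passed the threshold. The causes were not tested.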
